A study of Mus musculus with 2 samples.

Results

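In a sort for neutrophils from mouse Lewis lung carcinoma (LLC) tumors, 1531 of the 6630 cell barcodes met the conditions for neutrophils below before that on Tnf. Of these, 304 lacked Tnf and carried at least 4 unique molecular identifiers (UMIs, tags that mark single mRNA molecules) of Il1r2 and Cxcr2 together. These receptor-high neutrophils are described here. The members were chosen by the measured UMIs of these receptors and of the genes below, so those values are not findings. They came from 2 libraries. The Smad3-WT library held 4116 barcodes, 23951400 UMIs and 279 receptor-high neutrophils, and the Smad3-KO library held 2514 barcodes, 4214290 UMIs and 25. A barcode entered when it had at least 200 genes, more than 500 UMIs and under 10% mitochondrial UMIs, when S100a8 and S100a9 made up at least 1% of its UMIs, and when it had at most 1 UMI over a set of macrophage, monocyte, lymphocyte and carcinoma genes. It also had fewer than 10 UMIs of the immature granule genes Camp, Ngp and Ltf, fewer than 3 of the interferon genes Ifit1, Ifit3, Isg15 and Rsad2, and none of Tnf. Neutrophils that passed the same conditions with at most 1 UMI of Il1r2 and Cxcr2, 471 in Smad3-WT and 166 in Smad3-KO, are called receptor-low and served as the comparison within each library. A further 332 and 57 had 2 or 3 UMIs and lay between.

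Il1r2 encodes the decoy receptor for interleukin-1, which binds the cytokine without passing on a signal and so limits it. Cxcr2 encodes the receptor for chemokines such as Cxcl1, Cxcl2 and Cxcl5, which calls mature neutrophils out of the bone marrow and into inflamed tissue, and its surface level is known to fall once neutrophils have met ligand. Both are typical of mature circulating neutrophils. Mmp9, the gelatinase of the tertiary granules, and G0s2, an inhibitor of the triglyceride lipase Pnpla2, were given as further markers of these cells.

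The donors were mice aged 8 to 12 weeks, C57BL/6 by the sample labels and of C57BL/6 J background by the study's methods. They were either Smad3-WT (Smad3+/+) or Smad3-KO (Smad3-/-), the latter from a germline line in which a late exon of Smad3 is deleted and the exon before it disrupted. Subcutaneous LLC tumors, grown from a carcinoma line of the same strain, were pooled within each genotype, digested, sorted for CD11b+ Ly6G+ cells and run on a droplet kit that reads the 5′ end of each mRNA. Each genotype is therefore 1 library without a replicate, so no test between genotypes was possible and none is given. The sequenced 5′ ends lie away from the altered exons and do not check the genotype: Smad3 itself gave 4 and 6 UMIs in receptor-high and receptor-low Smad3-WT neutrophils and 1 and 27 in those of Smad3-KO. The pools also differed in the sex of the mice. Xist, which is read from the inactive X chromosome of females, had 0 UMIs in both Smad3-WT groups against 4 and 30 in Smad3-KO, and the Y-linked Ddx3y had 34 and 51 against 0 and 3, so sex and genotype cannot be told apart. Because the pools, the sort and the library preparation also went with the genotype, every difference between genotypes below is one between these 2 libraries.

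In the mm10 build, Il1r2 lies on chromosome 1 at 40074079 to 40125231 and Cxcr2 on the same chromosome at 74153989 to 74161246, both on the plus strand, while G0s2 lies at 193272161 to 193273217 of chromosome 1 on the minus strand and Mmp9 at 164940780 to 164955850 of chromosome 2 on the plus strand. The sequences before the RefSeq starts of the receptor genes are shown because the rule joins these genes. They are from the GRCm38 build, 5′ to 3′ on the plus strand, and end before the annotated exon nearest to these starts, at chr1:40085843-40085984 for Il1r2 and chr1:74153744-74153988 for Cxcr2. Capitals mark matches to CACGTG, the E-box.
Il1r2: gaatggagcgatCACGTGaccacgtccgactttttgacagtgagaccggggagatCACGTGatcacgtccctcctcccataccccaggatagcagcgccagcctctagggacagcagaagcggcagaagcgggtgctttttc
Cxcr2: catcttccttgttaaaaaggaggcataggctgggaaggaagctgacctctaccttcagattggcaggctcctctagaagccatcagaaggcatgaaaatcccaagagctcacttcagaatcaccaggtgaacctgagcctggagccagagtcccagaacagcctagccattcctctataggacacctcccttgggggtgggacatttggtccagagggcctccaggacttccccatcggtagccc
The Il1r2 window held 2 E-box matches, 238 and 195 bases before the RefSeq start, and the window lies within the gene, since other annotated transcripts of Il1r2 start upstream of it. Of 32841 mouse promoters, 6.02% held CACGTG on either strand within 250 bases before the start. The 250-base windows of both genes held no match to GAGGAAG, searched for PU.1 (in 10.6% of promoters), TTGCNNAA for C/EBP (9.57%), TGANTCA for AP-1 (6.75%), GTCTAGAC for Smad proteins (0.167%) or the kappaB motif of NF-kB (4.11%), each on both strands. A match or its absence describes these letters only.

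Most receptor-high neutrophils carried both receptors. In Smad3-WT, 191 of 279 had at least 1 UMI of each, 86 had Il1r2 without Cxcr2, and 2 had Cxcr2 without Il1r2. Il1r2 had a median of 4 UMIs per cell and a maximum of 22, and Cxcr2 had a median of 1 and a maximum of 8. In Smad3-KO, 20 of 25 had both, 4 lacked Cxcr2 and 1 lacked Il1r2, with medians of 3 and 1 and maxima of 6 and 4. Il1r2 thus carried most of the sum that placed a cell in the group, and the plot of UMIs of the receptors in each neutrophil shows the members spread along the Il1r2 axis. Of the cells next to the threshold, 110 Smad3-WT members, 39.4%, stood at exactly 4 UMIs and 140 Smad3-WT neutrophils stood just outside at 3, with 10 and 25 in Smad3-KO. At 4 UMIs Smad3-WT cells held 2962 CPM (UMIs of a gene per 1000000 UMIs of the group) of Il1r2 and 1205 of Mmp9, and at 3 UMIs 2644 and 1133. Some genes were alike at 3 and 4 UMIs, with Il1b at 9997 and 9779 CPM, Trem1 at 1001 and 966 and Csf3r at 1309 and 1362, and others were not: Hmox1 stood at 1229.9 and 267 CPM, Hilpda at 993 and 414, Ccl3 at 8196 and 5289.9 and Fth1 at 39698 and 28934.

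**Figure D1:**
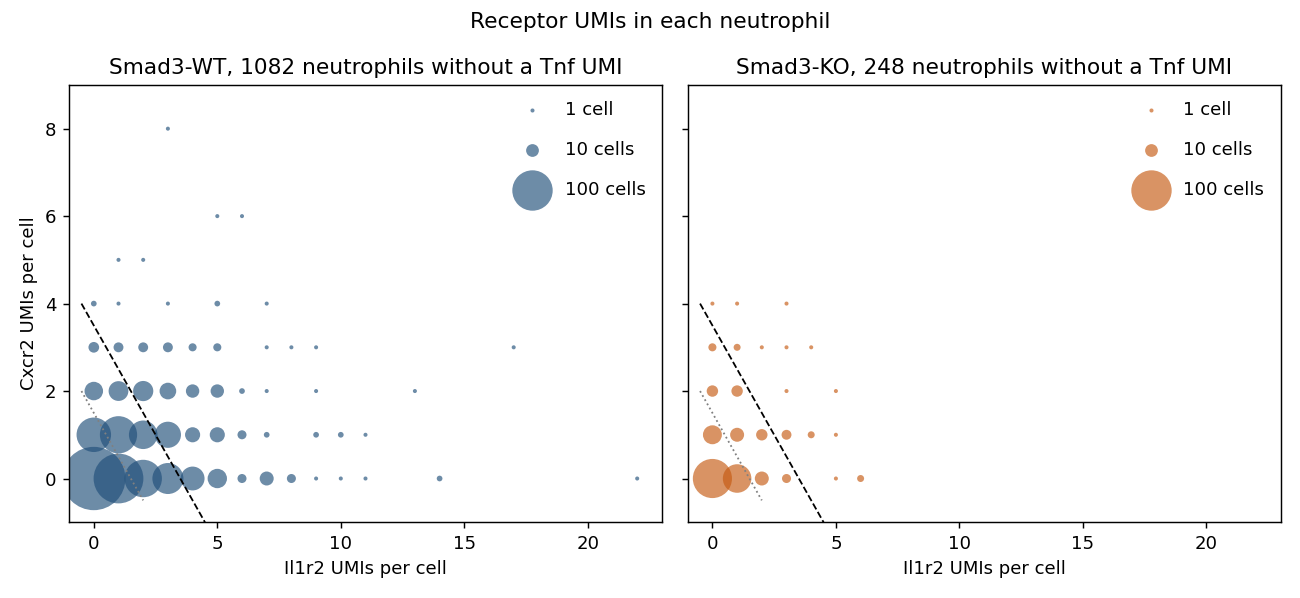
UMIs of Il1r2 (horizontal axis) and Cxcr2 (vertical axis) in neutrophils without Tnf, with the number of cells at each pair of values, for Smad3-WT and Smad3-KO. The 279 and 25 receptor-high cells lie on and beyond a sum of 4 UMIs and the other neutrophils fill the sums below it.

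Since the rule used both receptors, the level of each by the UMIs of the other is a description only. Over all Tnf-negative neutrophils of Smad3-WT, Il1r2 stood at 1926 CPM in the 629 cells without Cxcr2, 2154 in the 290 cells with 1 UMI, 2281 in the 114 cells with 2 and 2557 in the 49 cells with 3 or more. In Smad3-KO, Il1r2 stood at 672 CPM in 165 cells without Cxcr2 and at 1312, 1039 and 1419 in the 52, 18 and 13 cells with 1, 2 and 3 or more UMIs. Cxcr2 in turn stood at 524 CPM in Smad3-WT cells without Il1r2 and 907 in those with 3 or more UMIs of it, and at 424 and 1166 in Smad3-KO. The median depth also differed between these cells, from 704 UMIs at 0 Cxcr2 to 955 at 3 or more in Smad3-WT.

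Receptor-high cells made up 23.4% (95% Clopper-Pearson interval 21.1 to 26.0, covering counting error only like all intervals below) of the 1190 Smad3-WT neutrophils and 7.33% (4.80 to 10.6) of the 341 Smad3-KO neutrophils. Over all cells that passed the quality filters, they made up 7.15% and 1.03%. Of those cells, 733 in Smad3-WT and 131 in Smad3-KO held at least 4 receptor UMIs, and the other conditions left many of them out. The S100a8 and S100a9 condition passed 1781 and 1027 cells. The conditions on genes of other cell types, granules and interferon then kept 1190 and 341. The rule leaves out cells with Tnf, and 27.3% (22.6 to 32.3) of Smad3-KO neutrophils had a UMI of it against 9.08% (7.50 to 10.9) of Smad3-WT neutrophils. With those cells left in, 31 further Smad3-WT and 4 further Smad3-KO neutrophils reached 4 UMIs. The difference between the libraries exceeded its counting error, and it could not be set against any spread between pools. What part of it the conditions on other genes made was not tested. Barcodes of other cell types were set beside the members. Whether their receptor UMIs were their own or background was not tested. Il1r2 stood at 135 CPM in 46 Smad3-WT lymphocyte barcodes, meaning cells with Cd79a or Cd3e outside the neutrophil gate, and at 22.9 CPM in 631 of Smad3-KO, against 4268 and 3733 CPM in the members, and median depths were 7160.5 and 1380 UMIs there. Cxcr2 stood at 35.1 and 8.99 CPM in these barcodes, and Il1r2 at 59.3 and 48.5 CPM in 462 and 29 macrophage-like barcodes with C1q genes. In Smad3-WT, 6 of the 46 and 38 of the 462 barcodes themselves held at least 4 receptor UMIs, at median depths of 7160.5 and 7455.5 UMIs over all such barcodes, and in Smad3-KO 0 did. The receptor-low cells still held 403 and 294 CPM of Il1r2, more than those other cell types, and the rule lets them carry 1 UMI.

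The other label markers, which the rule did not use as a condition, were higher in the members in both libraries, except that G0s2 in Smad3-KO had a ratio of 0.915 over the 8 members with 6 or more receptor UMIs. Mmp9 stood at 1337 CPM in receptor-high and 943 in receptor-low Smad3-WT neutrophils, and 1184 and 412 in those of Smad3-KO, a ratio of 1.42 (1.22 to 1.64) and 2.87 (1.76 to 4.56) with 95% intervals from the binomial split of the UMIs. G0s2 stood at 7745 CPM in receptor-high and 5417 in receptor-low Smad3-WT neutrophils, and 5326 and 3316 in those of Smad3-KO, ratios of 1.43 (1.35 to 1.52) and 1.61 (1.30 to 1.96). Along the receptor sum in Smad3-WT, Mmp9 stood at 678 CPM in cells with none of the receptors and already at 1229.9 in cells with 1 UMI, then stayed between 1108 and 1728 up to cells with 8 or more. G0s2 stood at 4514, 6392, 6082 and 7406 CPM at 0 to 3 UMIs, at 6826 and 8655 at 4 and 5, and at 8643 and 7496 at 6 to 7 and at 8 or more, with drops between some neighboring steps. Of 12 neutrophil identity genes, Cd177 had 0 UMIs in Smad3-KO members and 5 in the receptor-low cells, and the rest were present in all 4 groups, with Csf3r, the receptor for granulocyte colony-stimulating factor, at 1559.5 CPM in receptor-high and 991 in receptor-low Smad3-WT neutrophils, and 1229 and 948 in those of Smad3-KO. Ly6g, the gene of the sorted antigen, was barely sampled, with 9, 4, 2 and 25 UMIs in the same order. The authors' averages over their own 13 clusters of all cells showed the receptors together: the clusters with the highest normalized mean UMIs of Il1r2 per cell, 3.98, 2.81 and 2.19, also had the highest 3 means of Cxcr2, 1.46, 1.02 and 0.570. They held Mmp9 at 2.09, 1.16 and 2.40, against at most 0.481 in the other clusters. G0s2 did not follow throughout, at 10.9, 8.99 and 3.88, the last below the 4.49 of another cluster. The same clusters also had the highest means of the neutrophil gene S100a8, 64.168, 54.996 and 67.927 against at most 33.678.

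**Figure D2:**
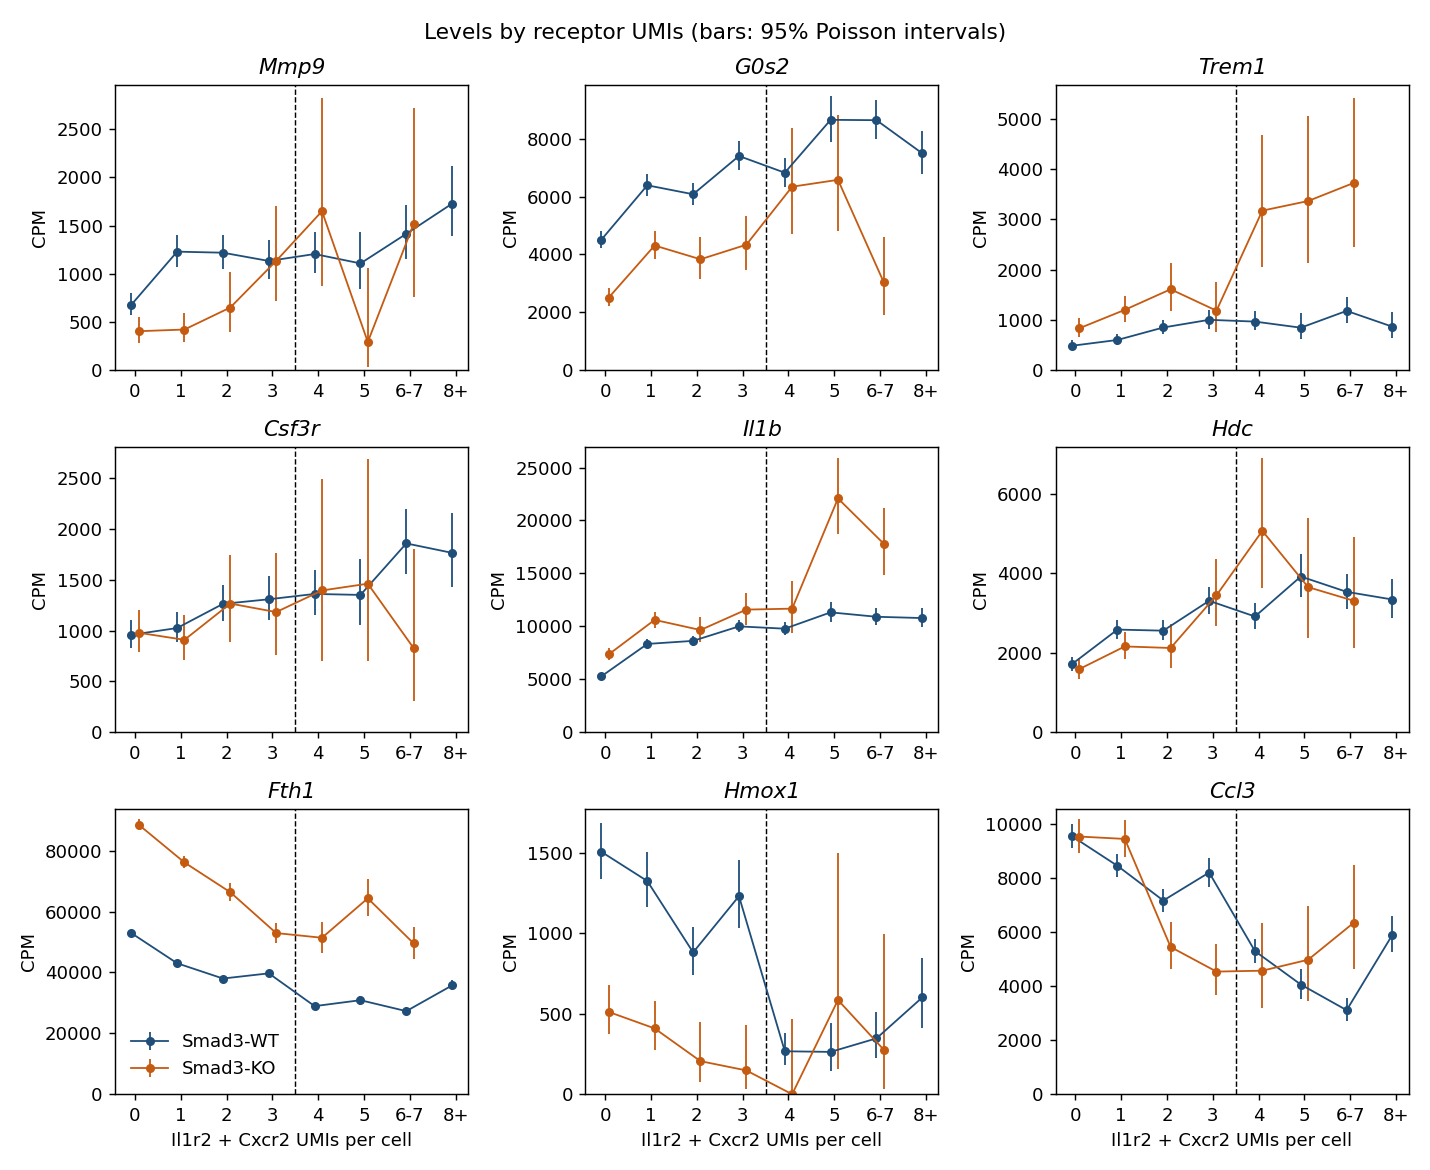
Level of selected genes (CPM, vertical axis) by the sum of Il1r2 and Cxcr2 UMIs per neutrophil (horizontal axis), Smad3-WT and Smad3-KO, with 95% Poisson intervals as bars. In Smad3-WT, Hmox1 stands at 1505 CPM at a sum of 0, 1229.9 at 3, 267 at 4 and 601 at 8 or more, while Il1b stands at 5285, 9997, 9779 and 10783 CPM.

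Within Smad3-WT, few genes were past 2-fold between receptor-high and receptor-low neutrophils, and more of these were lower than higher in the members. Of 1528 genes with at least 50 UMIs in the groups together, 15 (0.982%) were at least 2-fold higher in the members and 77 (5.04%) at least 2-fold lower, 92 (6.02%) in all. The median ratio was 1.06. The split of higher and lower genes depended on the processing, with 42 and 92 after thinning each cell to 500 UMIs, 52 and 83 with receptor-low cells weighted to the members' depths, 65 and 77 against cells with neither receptor, 76 and 160 with the threshold as a share of UMIs, and 9 and 92 with scaling by the median of ratios. Since the same cells and counts defined the groups, these are descriptions with no test. The cells were also deeper, with a median of 826 UMIs and 391 genes per cell in the members against 691 and 339.

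Genes of mature blood neutrophils, of migration and of danger sensing were mostly higher in Smad3-WT members, by less than 2-fold for most. In a list of mature blood neutrophil genes, 15 of 20 genes with at least 20 UMIs had a ratio above 1, with a median of 1.21 against 1.05 over all 3031 such genes, of which 1672 were above 1, 3.4% were past 2-fold higher and 6.33% past 2-fold lower. None of the list was past 2-fold with the thresholds given above. Hp, which encodes the hemoglobin scavenger haptoglobin, stood at 808 against 411 CPM, a ratio of 1.97 (1.60 to 2.43). Its ratio was 3.25 with the threshold as a share of UMIs, 2.51 against cells with neither receptor and 1.68 at the lowest over the alternatives. Selplg, the selectin ligand with which neutrophils roll on vessel walls, stood at 682 against 419 CPM (1.63, 1.31 to 2.02). Among integrins and selectin ligands, 10 of 11 were above 1, with a median of 1.39. Chemotactic receptors other than Cxcr2 shared this direction, with 7 of 9 above 1 and a median of 1.45: Ccr1 stood at 1793 against 1229.6 CPM (1.46, 1.28 to 1.66), C5ar1, the receptor for the complement fragment C5a, at 1358 against 938 CPM (1.45, 1.25 to 1.68) and Cxcr4, which holds neutrophils in the marrow, at 501 against 329 CPM (1.53, 1.19 to 1.96). Ccrl2, a nonsignaling chemerin receptor, went the other way at 515 against 877 CPM (0.587, 0.481 to 0.715). In Smad3-KO, 4 of 7 chemotactic receptors were above 1, with a median of 1.23. There 2 were past 2-fold lower, against 25.8% of 1091 genes. Cxcr4 went the other way in Smad3-KO, with a ratio of at most 0.253 under 18 alternatives. It was seen in 1 of 25 members and 20 of 166 receptor-low cells there.

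Of the pattern recognition receptors, 17 of 23 were above 1 in Smad3-WT members, with a median of 1.21. Trem1, a receptor that amplifies inflammatory signals through Tyrobp, stood at 978 against 541 CPM (1.81, 1.51 to 2.18), Cd14, the lipopolysaccharide coreceptor, at 4967 against 3638 CPM (1.37, 1.27 to 1.47) and Tyrobp at 7599 against 5719 CPM (1.33, 1.25 to 1.41). Ly96, the partner of Tlr4, was the exception past 2-fold lower, with 4 UMIs against 23. Myd88, the adaptor shared by Toll-like and interleukin-1 receptors, was past 2-fold higher at 139 against 55.6 CPM, on 40 and 21 UMIs and with a wide interval of 1.44 to 4.47. Interferon-stimulated genes other than those of the rule had a median of 1.25, with 12 of 16 above 1, although the rule had removed cells high in 4 such genes. Ifitm1 and Ifitm2, membrane proteins that restrict virus entry, stood at 3095 against 1939.8 CPM and 4149 against 2494 CPM. The chemokine gene Cxcl10 was the member of the list past 2-fold lower, on 5 against 26 UMIs (0.253, 0.0758 to 0.669), and none was past 2-fold higher. Oas3, an antiviral sensor of double-stranded RNA that is not on the list, was past 2-fold higher on 35 against 18 UMIs (2.55, 1.41 to 4.79). Immediate early genes had a median of 1.18, and Socs3, a feedback inhibitor of cytokine signaling, stood at 1215 against 758 CPM (1.60, 1.37 to 1.88). Fgl2, a prothrombinase-like protein of myeloid cells, was among the 15 past 2-fold at 557 against 262 CPM (2.12, 1.64 to 2.76). The top of the 15 was the noncoding Gm26917, with 36 against 14 UMIs, and this ratio of 3.38 came to 1.47 without cells that had at least 2 UMIs of markers of other cell types.

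The interleukin-1 system split in the members. Il1b, the cytokine that the decoy receptor binds, was higher at 10534 against 6752 CPM in Smad3-WT, a ratio of 1.56 (1.48 to 1.65). Il1a, the other interleukin-1, went the other way, with 3 UMIs in the members against 31 in receptor-low cells (0.127, 0.0249 to 0.408). Il1rn, which encodes the antagonist that occupies the signaling receptor, was lower at 3324 against 4918 CPM (0.676, 0.625 to 0.731). Il1rap, the coreceptor, stood at 313 against 201 CPM (1.56, 1.13 to 2.14) and Irak3, an inhibitor of the pathway, at 31.3 against 87.4 CPM (0.358, 0.151 to 0.765). Over all 13 measured genes of the list the median was 1.09.

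The genes lower in Smad3-WT members included those that tumor-adapted, hypoxic neutrophils are known for. Of 27 measured tumor-adapted genes, 22 were below 1, 8 past 2-fold and 0 past 2-fold higher, with a median of 0.600. Over all 3031 genes with at least 20 UMIs, 1359 were below 1, 6.33% past 2-fold lower and 3.4% past 2-fold higher. Hmox1, which breaks down heme, stood at 348 against 1418 CPM, a ratio of 0.246 (0.196 to 0.304). Hilpda, a hypoxia-induced protein of lipid droplets, stood at 463 against 1691 CPM (0.274, 0.225 to 0.331), and Spp1, osteopontin, at 1709 against 4319 CPM (0.396, 0.357 to 0.438). Cd274, the checkpoint ligand PD-L1, stood at 223 against 543 CPM (0.410, 0.305 to 0.545), and the second ligand of PD-1, Pdcd1lg2, had 9 against 48 UMIs (0.246, 0.106 to 0.508). The ferritin chains that store iron were lower by less, with Fth1 at 30146 against 48163 CPM (0.626, 0.610 to 0.642) and Ftl1 at 12215 against 19406 CPM (0.629, 0.604 to 0.655). Hcar2, a receptor for ketone bodies and niacin, was lower at 1869 against 3339 CPM (0.560, 0.505 to 0.620) and Cstb, an inhibitor of cathepsins, at 1023 against 2192 CPM (0.467, 0.407 to 0.534). The Hmox1 ratio was 0.422 with members from 3 UMIs and 0.160 without the deepest 5% of neutrophils.

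Glycolysis and hypoxia genes, which share 6 genes with the tumor-adapted list, had a median of 0.756 with 19 of 26 below 1 and 7 past 2-fold lower. The share past 2-fold lower over all 3031 genes, for this list and the stress list below, was 6.33%. Ldha, which turns pyruvate into lactate, stood at 710.1 against 1439 CPM (0.494, 0.418 to 0.581), and Gapdh at 3488 against 5022 CPM (0.695, 0.643 to 0.750). Genes of protein folding and stress, which also respond to tissue digestion, were lower as well: 5 of 12 were past 2-fold lower, the heat shock protein gene Hspa1a at 66.1 against 246 CPM and the endoplasmic reticulum chaperone Hspa5 at 372 against 766 CPM, with a median of 0.538. The Hspa1a ratio of 0.268 was 0.465 with members from 3 UMIs and 0.123 without the deepest 5% of neutrophils. Hspa5, at 0.486, was not past 2-fold with cells thinned to 500 UMIs (0.612), against all other neutrophils (0.617) or without the deepest 5% (0.662). Against cells with neither receptor its ratio was 0.349. Ero1l, the oxidase that serves disulfide bonding in the same compartment, stood at 240.2 against 631 CPM (0.381, 0.287 to 0.500). In the lipid droplet list the members opposed each other, with Plin2, a droplet coat protein, at 536 against 1099.7 CPM (0.487, 0.402 to 0.588) and Dgat1, which completes triglyceride synthesis, at 975 against 670.4 CPM (1.45, 1.22 to 1.73). The part that handling of the tissue had in these values was not tested.

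Chemokine genes were lower in Smad3-WT members, 11 of 12 below 1 and 5 past 2-fold, with a median of 0.525. Over all 3031 genes with at least 20 UMIs, 1359 were below 1 and 6.33% past 2-fold lower. These included the ligands of Cxcr2 itself, Cxcl2 at 29063 against 37251 CPM (0.780, 0.759 to 0.802) and Cxcl3 at 11167 against 18338 CPM (0.609, 0.584 to 0.635). Ccl3 and Ccl4, which draw monocytes and T cells, stood at 4626 against 9018 CPM (0.513, 0.481 to 0.547) and 5900.4 against 9063 CPM (0.651, 0.614 to 0.690), and Ccl9 at 404 against 753 CPM (0.537, 0.429 to 0.668). The rule removes cells with Tnf from both groups, and with such cells kept Ccl3 had a ratio of 0.576 and Ccl4 of 0.725. Ccl5, with 0 UMIs against 113, had 93 of these in 1 receptor-low cell, and the hemoglobin gene Hbb-bs, with 4 against 278, had 229 in 1 cell. The platelet chemokine gene Pf4 had 11 against 72 UMIs, 38 of them in 1 cell.

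**Figure D3:**
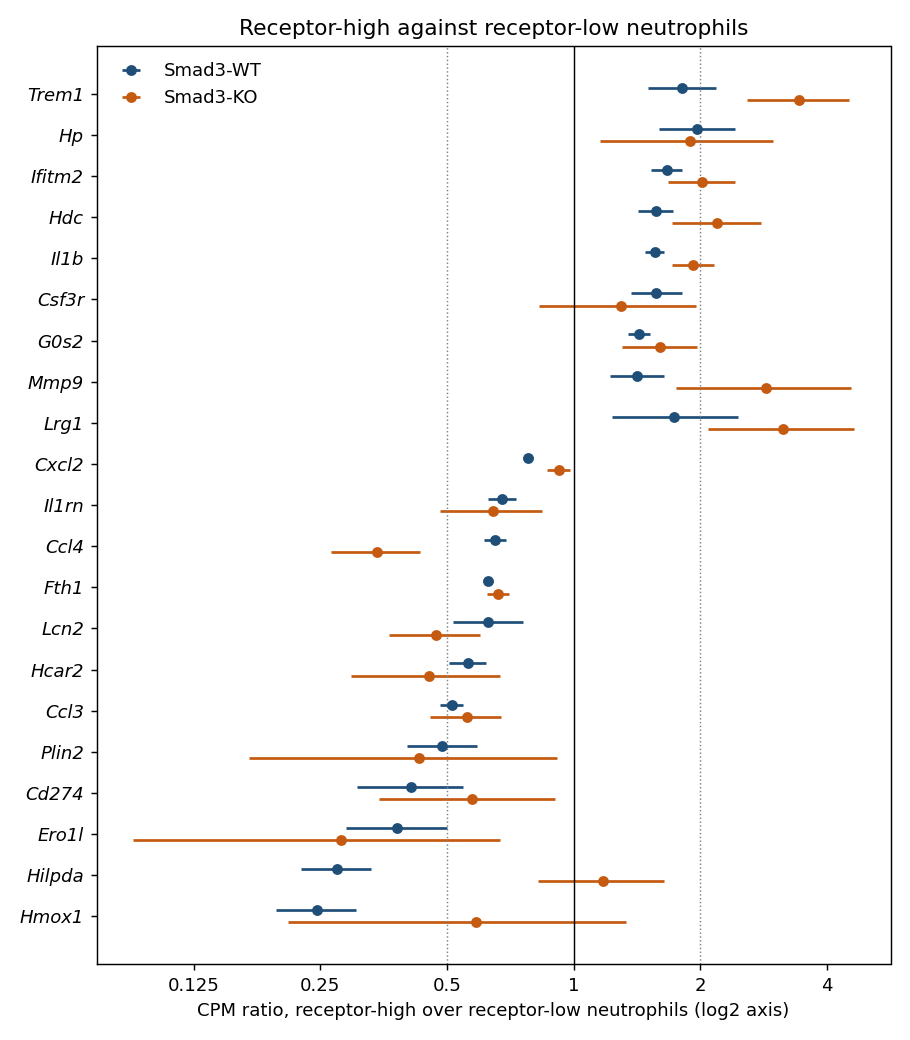
Ratio of CPM in receptor-high over receptor-low neutrophils (log axis) for named genes, Smad3-WT and Smad3-KO, with 95% counting intervals as bars. Trem1 and Il1b lie above 1 in both libraries and Ccl3, Fth1 and Cd274 below 1, while Hilpda stands at 0.274 in Smad3-WT and 1.18 in Smad3-KO.

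In Smad3-KO the members numbered 25, with 21968 UMIs in all, so that 1 UMI is worth 45.5 CPM and only 494 genes reached 50 UMIs in the groups together. Of these, 30 (6.07%) were at least 2-fold higher in the members and 112 (22.7%) at least 2-fold lower, 142 (28.7%) in all, with a median of 0.999. Ribosomal protein genes made up 51 of the 112. They took 1.45% of the members' UMIs and 4.78% of the receptor-low UMIs, but the medians per cell were 1.30 and 1.53%, and the summed ratio of 0.303 came to 0.728 without cells that had at least 2 UMIs of markers of other cell types. There were 18 such cells among the 166 receptor-low cells and none among the 25 members. With them left out, 73 genes were past 2-fold, 26 higher and 47 lower. The lowest genes also included Col3a1 and Cd74, a collagen and the invariant chain of antigen presentation, at 0 UMIs in the members against 70 and 111, and Ccl5, of whose 187 UMIs 169 lay in 1 cell.

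Genes higher in Smad3-KO members included Trem1, Lrg1 and Dgat1. Trem1 stood at 3414 against 995 CPM, a ratio of 3.43 (2.58 to 4.53). Lrg1, a secreted glycoprotein of neutrophil granules, stood at 1684 against 536 CPM (3.14, 2.08 to 4.65) and Dgat1 at 2276 against 742 CPM (3.07, 2.16 to 4.29). Adam8, a membrane protease of neutrophils, stood at 1639 against 607 CPM (2.70, 1.79 to 3.98), Socs3 at 1092 against 418 CPM (2.61, 1.57 to 4.20, but 0.660 over the 8 cells with 6 or more receptor UMIs), and the paired receptors Sirpb1c and Cd300ld at 956 against 265 CPM and 910.4 against 259 CPM. In Smad3-WT these genes had ratios from 1.14 for Adam8 to 1.81 for Trem1, with the intervals of Adam8 and Sirpb1c across 1. Il1b was higher at 16934 against 8810.0 CPM (1.92, 1.71 to 2.15), Hdc, which makes histamine, at 4051 against 1843 CPM (2.20, 1.72 to 2.79; 1.57 in Smad3-WT), and S100a11 at 5235 against 2232 CPM (2.35, 1.89 to 2.90; 1.44 in Smad3-WT). The ratio of Adam8 was 1.59 at 6 or more receptor UMIs and that of Lrg1 was 2.06 with cells thinned to 500 UMIs.

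Of the tumor-adapted genes, 22 of 27 were below 1 in Smad3-KO members too and 5 were past 2-fold lower, with a median of 0.665 against 0.948 over the 1091 genes with at least 20 UMIs, of which 574 were below 1, 9.62% were past 2-fold higher and 25.8% lower. Ccl4 stood at 3277 against 9611 CPM (0.341, 0.265 to 0.432), Ccl3 at 5280.4 against 9487 CPM (0.557, 0.457 to 0.672), Hcar2 at 1229 against 2709 CPM (0.454, 0.296 to 0.669) and Cd274 at 910.4 against 1584 CPM (0.575, 0.345 to 0.905). Ccl4 was no longer past 2-fold with Tnf-positive cells kept (0.654) or at 6 or more receptor UMIs (0.732), nor Hcar2 with members from 3 UMIs (0.690). Il1rn was again lower (2595 against 4034 CPM; 0.643, 0.482 to 0.843). Hmox1 had 6 UMIs in the members and an interval across 1 (0.587, 0.209 to 1.34). Intervals also lay across 1 for Spp1 (0.791, 0.485 to 1.23), Hilpda (1.18, 0.821 to 1.64) and Ldha (1.05, 0.667 to 1.58). For Spp1, Hilpda and Ldha these intervals lie above the whole Smad3-WT interval, with the difference between the libraries not tested. All 22 Spp1 UMIs of the Smad3-KO members lay in 3 cells with 5 receptor UMIs. At 6 or more receptor UMIs the Smad3-KO ratio was 0 for Spp1 and 1.87 for Hilpda. NF-kB subunits and feedback inhibitors had a median of 0.534 in Smad3-KO (0.317 without the top cell of each gene) and 1.04 in Smad3-WT, with Tnfaip3 at 501 against 1072 CPM (no UMI at 6 or more receptor UMIs) and Nfkbia at 4324 against 6560.4 CPM in Smad3-KO. Over the 479 genes with enough UMIs in both libraries, 1 was past 2-fold higher in Smad3-WT and 30 in Smad3-KO. None was in common, and 1 gene is too few to read an overlap from. Past 2-fold lower were 23 in Smad3-WT and 105 in Smad3-KO. Of the 23, 9 (39.1%) were also lower in Smad3-KO, as were 105 of all 479. Of the 105, the same 9 (8.57%) were lower in Smad3-WT, as were 23 of all 479. No gene was past 2-fold in opposite directions.

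**Figure D4:**
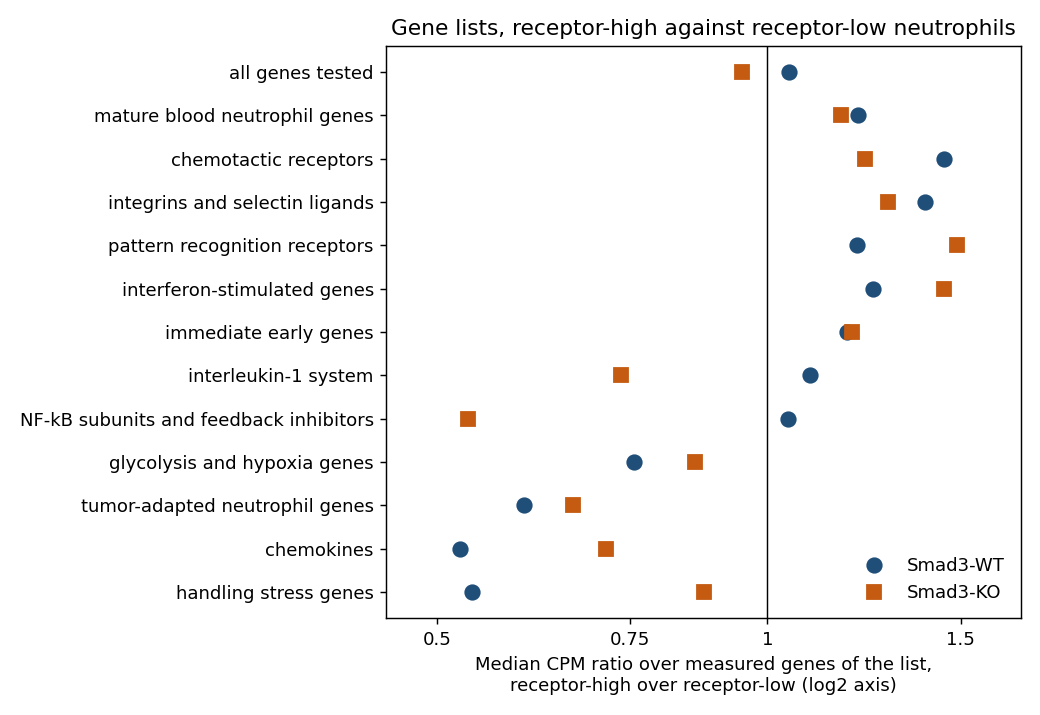
Median ratio over the measured genes of each list (log axis) for receptor-high over receptor-low neutrophils in Smad3-WT (circles) and Smad3-KO (squares). Tumor-adapted genes stand at 0.600 and 0.665 and mature blood neutrophil genes at 1.21 and 1.17 within the libraries.

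Between the genotypes, 822 genes had at least 50 UMIs over the receptor-high neutrophils of both. In Smad3-KO members 53 (6.45%) were at least 2-fold higher and 253 (30.8%) at least 2-fold lower than in Smad3-WT members, 306 (37.2%) in all. The median ratio was 0.807, a shift of -0.31 on the log2 scale, and scaling by the median of ratios instead gave 111 higher and 208 lower, which raised the higher share of the genes past 2-fold from 17.3 to 34.8%. Ratios below are to be read against that median. Ribosomal protein genes made up 63 of the 253, with a summed ratio of 0.266 (0.238 to 0.297). A single Smad3-WT member with 15026 UMIs, against 4619 in the next deepest, held 6066 of the 15669 ribosomal UMIs of the group, and without it the ratio was 0.412 (0.367 to 0.460). In the same cell lay 258 of the 358 Rps7 UMIs that stood against 0 in Smad3-KO.

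Trem1, Lrg1 and Lcn2 were higher in Smad3-KO members. Trem1 stood at 3414 against 978 CPM, a ratio of 3.49 (2.67 to 4.52), and Lrg1 at 1684 against 285 CPM (5.90, 3.89 to 8.80). Lcn2, lipocalin-2, which binds bacterial iron carriers, stood at 3186 against 560.4 CPM (5.69, 4.23 to 7.57), Wfdc17 at 11380.2 against 2158 CPM (5.27, 4.53 to 6.12) and Slpi, an inhibitor of neutrophil elastase, at 7829.6 against 2398 CPM (3.26, 2.75 to 3.86). Most of these differences were present in receptor-low cells as well, where the Smad3-KO over Smad3-WT ratio was 7.58 for Lcn2, 3.77 for Wfdc17, 3.56 for Slpi, 3.26 for Lrg1 and 1.84 for Trem1. Mature blood neutrophil genes had a median of 1.55 between the members, 5 of 18 past 2-fold higher, against 0.750 over all 1717 genes with at least 20 UMIs, of which 9.55% were past 2-fold higher and 34.3% lower. NF-kB subunits and feedback inhibitors went both ways, with 4 of 9 past 2-fold higher, 2 past 2-fold lower and a median of 1.49. Tnfaip3, which switches off NF-kB signaling, stood at 501 against 104 CPM (4.79, 2.17 to 9.84, with no UMI in the 8 members at 6 or more receptor UMIs), Nfkbiz at 1775 against 560.4 CPM (3.17, 2.17 to 4.52) and Nfkbia at 4324 against 1828 CPM (2.37, 1.88 to 2.95), with ratios of 6.86, 3.11 and 3.41 in receptor-low cells. Birc3, an inhibitor of cell death, was the other one past 2-fold higher, on 7 against 29 UMIs (3.16, 1.17 to 7.36). The subunit gene Nfkb1, with 0 against 31 UMIs, and the inhibitor gene Nfkbid, with 2 against 55, were past 2-fold lower with intervals across 1. Il1a, on 7 UMIs against 3, had a ratio of 30.5 with an interval of 6.97 to 183. Sod2, the mitochondrial superoxide dismutase, stood at 319 against 69.6 CPM (4.58, 1.64 to 11.3; 7.10 in receptor-low cells). The Lcn2 ratio between the members was 3.20 without the top cell of each group and 8.14 at 6 or more receptor UMIs, and that of Wfdc17 was 8.71 at 6 or more.

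Cd274 was higher in Smad3-KO members at 910.4 against 223 CPM, a ratio of 4.09 (2.34 to 6.84), and in receptor-low cells with a ratio of 2.92. So Cd274 was lower in receptor-high than in receptor-low cells of either library, and Smad3-KO members still held more of it than Smad3-WT receptor-low cells, 910.4 against 543 CPM. Hilpda was higher in Smad3-KO members (1821 against 463 CPM; 3.93, 2.69 to 5.64) and stood at 1549 against 1691 CPM in receptor-low cells (0.916), and the difference of these ratios was not tested. Fth1 stood at 54807 against 30146 CPM (1.82, 1.71 to 1.93) while its partner Ftl1 went the other way at 7329 against 12215 CPM (0.600, 0.509 to 0.703). Cxcl2 was higher at 47296 against 29063 CPM (1.63, 1.52 to 1.74). Anxa1, a pro-resolving protein of neutrophils, stood at 865 against 178 CPM (4.87, 2.72 to 8.40) and Tnfrsf1b, the second receptor for tumor necrosis factor, at 774 against 229.7 CPM (3.37, 1.85 to 5.81). The size of these ratios depended on the threshold and on single cells: that of Hilpda was 2.25 with the threshold as a share of UMIs, 2.55 from 3 UMIs and 6.26 from 6, that of Cd274 was 2.43 with the threshold as a share, and that of Anxa1 was 2.72 without its top cells.

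The receptors, whose sum the rule sets, stood at 3733 against 4268 CPM for Il1r2 (0.875, 0.691 to 1.09) and 2003 against 1281 CPM for Cxcr2 (1.56, 1.12 to 2.14) in Smad3-KO and Smad3-WT members, with Mmp9, above the median of all genes like Il1r2, at 1184 against 1337 CPM (0.885, 0.571 to 1.32) and G0s2 at 5326 against 7745 CPM (0.688, 0.566 to 0.828). The G0s2 ratio was 0.372 at 6 or more receptor UMIs and 0.535 with the threshold as a share of UMIs. Genes lower in Smad3-KO members included Ccl6, Tyrobp and Ier3. Ccl6, a myeloid chemokine, stood at 2959 against 8974 CPM (0.330, 0.254 to 0.422; 0.300 in receptor-low cells), Ccl4 at 3277 against 5900.4 CPM (0.555, 0.433 to 0.703, but 1.16 with Tnf-positive cells kept and 1.27 at 6 or more receptor UMIs) and Ccl9 at 0 UMIs against 404 CPM, at least 2.96-fold lower at a floor of 3 UMIs over the group. Tyrobp stood at 3277 against 7599 CPM (0.431, 0.336 to 0.545), Ier3, an early response gene, at 4370.0 against 9872 CPM (0.443, 0.357 to 0.543) and Slfn1, an interferon-induced gene, at 409.7 against 1959.8 CPM (0.209, on 9 and 563 UMIs), each with a like ratio in receptor-low cells (0.385, 0.437 and 0.272). At 6 or more receptor UMIs the ratio of Ccl6 was 0.176 and that of Slfn1 0.0643. Clec4n, the C-type lectin Dectin-2, had 1 UMI against 474 (0.0276, 0.000697 to 0.154) and 0 against 516 in receptor-low cells. Cxcr4 had 1 UMI against 144 (0.0908, 0.00228 to 0.514), and Jaml, an adhesion molecule of migrating leukocytes, 2 against 129 (0.203, 0.0243 to 0.747). Id1, a known transcriptional target of bone morphogenetic protein and TGF-beta signaling, had 0 against 86 UMIs, at least 2.19-fold lower. The list of TGF-beta and Smad pathway genes, given with the N1 and N2 markers below, went both ways.

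The predicted gene Gm3839 had 1 and 2 UMIs in receptor-high and receptor-low Smad3-WT neutrophils against 59 and 439 in Smad3-KO, and the class I major histocompatibility gene H2-Q10 had 179 and 121 against 0 and 2. Both have near-identical relatives in the genome, between which the counting could split reads, and both are uncertain. They differed between the libraries whatever the receptor level.

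**Figure D5:**
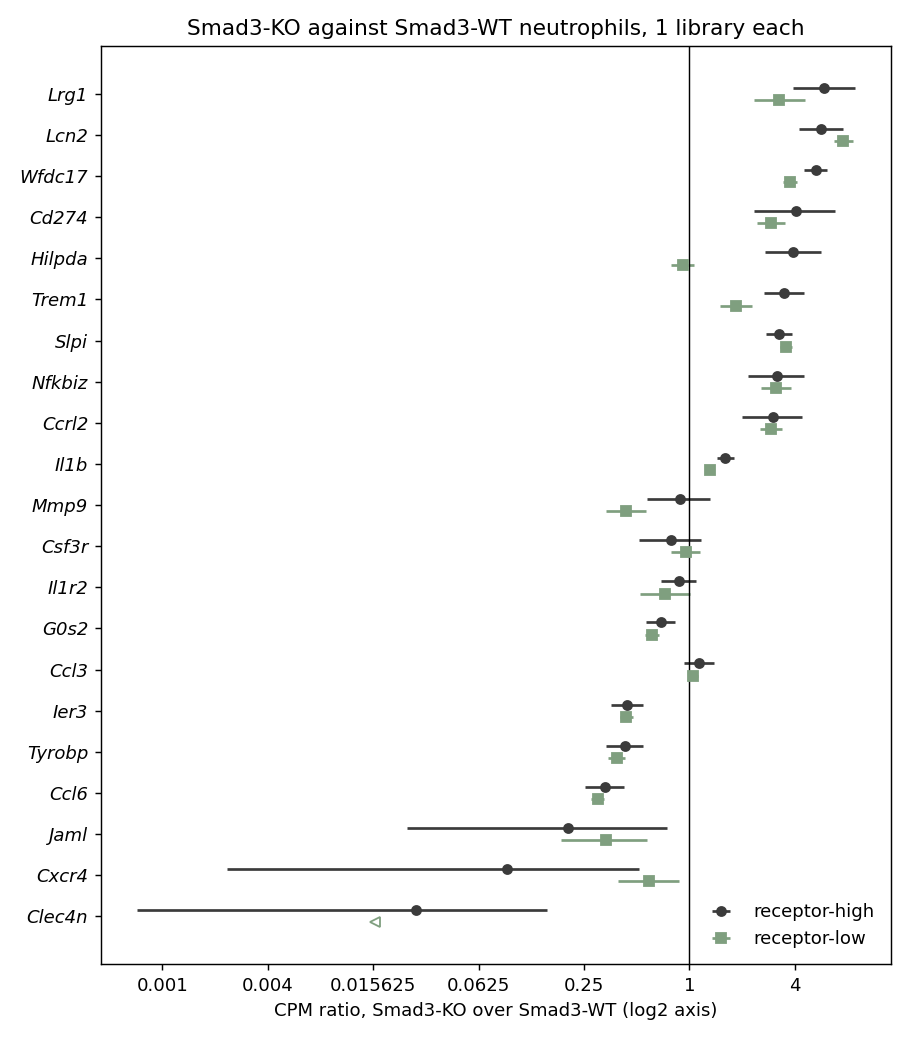
Ratio of CPM in Smad3-KO over Smad3-WT (log axis) for named genes, in receptor-high and in receptor-low neutrophils, with 95% counting intervals as bars. Lcn2, Slpi and Wfdc17 lie above 3 in both kinds of cell, and Hilpda lies at 3.93 in receptor-high and 0.916 in receptor-low cells.

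The study divides tumor neutrophils into N1 and N2 states, and the markers of these described here were thinly sampled in the members. Of the N1 markers, Fas stood at 228 against 216 CPM in Smad3-KO and Smad3-WT members. Icam1 had 6 and 10 UMIs, where 1 UMI is worth 45.5 and 3.48 CPM. Its level was thus higher in Smad3-KO members, on few UMIs. Tnf is 0 by the rule and Nos2, which makes nitric oxide, had 0 and 0 UMIs. Together the N1 markers stood at 501 against 251 CPM in Smad3-KO and Smad3-WT members. The interval of that ratio lay across 1 (0.955 to 3.79). Nos2 had 23 UMIs in Smad3-KO receptor-low cells, which made it the N1 marker past 2-fold lower in Smad3-KO members, with an interval across 1 (0 to 1.34). In Smad3-WT the 2 measured N1 markers had a median high over low ratio of 0.822 and in Smad3-KO the 3 had 0.773. Of the N2 markers, Ccl2, a monocyte chemokine, was past 2-fold lower in Smad3-WT members on 19 against 51 UMIs (0.489, 0.273 to 0.843), with 0 and 2 in Smad3-KO. Mrc1, the mannose receptor, had 6 and 4 UMIs in Smad3-WT and 0 and 2 in Smad3-KO, and the growth factor gene Vegfb 4 and 1, and 0 and 1. Of the 25 TGF-beta and Smad pathway genes, 10 could be measured in Smad3-WT with a median of 1.02 and 6 between the genotypes with a median of 0.914, against 1.05 and 0.750 over all genes with at least 20 UMIs. Between the genotypes 2 of the 6 were past 2-fold higher and 1 past 2-fold lower, against 9.55 and 34.3% of all 1717 genes. In Smad3-KO 5 could be measured, 4 below 1 and 2 past 2-fold lower, with a median of 0.7996. Over all 1091 genes with at least 20 UMIs there, 574 were below 1 and 25.8% past 2-fold lower, with a median of 0.948. Thbs1, which releases latent TGF-beta, was the most abundant at 7244 CPM in receptor-high and 7494 in receptor-low Smad3-WT neutrophils, and 5007 and 5194 in those of Smad3-KO. The ligand gene Tgfb1 stood at 278 CPM in receptor-high and 233 in receptor-low Smad3-WT neutrophils, and 182 and 47.1 in those of Smad3-KO. In these Smad3-KO groups 1 UMI is worth 45.5 and 5.89 CPM, so their Tgfb1 levels rest on few UMIs.

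Genes of other cell types were scarce in the members, which the rule partly fixed in advance. It allows at most 1 UMI per cell over 8 macrophage, monocyte, lymphocyte and carcinoma genes, and the sums here include these genes. Macrophage and monocyte markers summed to 132 UMIs in Smad3-WT members and 262 in receptor-low cells (ratio 0.662, 0.533 to 0.819), with 5 and 128 in Smad3-KO, led in receptor-low cells by Pf4 and by Apoe. Fibroblast markers summed to 18 and 76, and 0 and 183, led by Col3a1, and dendritic cell markers to 119 and 178, and 1 and 265, led by Cd74. Red cell markers came to 4 and 419 UMIs in Smad3-WT, B cell markers to 10 and 19, carcinoma markers to 9 and 18, T and NK cell markers to 4 and 1, and eosinophil and basophil markers to 3 and 1. In Smad3-KO members T and NK cell, carcinoma, fibroblast, eosinophil and basophil, and red cell markers were all at 0, in 21968 UMIs. Cells with at least 2 UMIs of such markers numbered 23 of 279 and 41 of 471 in Smad3-WT. Without them Col3a1 in Smad3-WT went from a ratio of 0.404 to 1.78, while the Smad3-WT medians of the tumor-adapted, chemokine, mature blood and migration lists stayed on the same side of 1. Immature granule and proliferation genes summed to 49 and 73 UMIs in Smad3-WT, 30 and 48 of them from Tuba1b, and to 2 and 39 in Smad3-KO. These sums include Camp, Ngp and Ltf, which the rule limits and which had 4, 15 and 6 UMIs in Smad3-KO receptor-low cells.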

How the data were processed

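The authors aligned and counted the reads with Cell Ranger 3.0.2 against mm10, per the study's methods and labels. They deposited UMI counts per gene and barcode, not normalized, for the 4116 and 2514 barcodes that the study reports as cells. They also deposited average signal per library and per cluster, which is UMIs per cell scaled to the median depth of 1311 UMIs, together with their own fold changes and p-values, which were not used. The barcode suffixes were matched to genotypes by recomputing the library averages (largest difference 3.58e-08 over 19114 genes). The libraries shared 73 barcode sequences, 1 of them in a receptor-high cell. No doublet caller was run.

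UMIs were summed over the cells of each group and divided by the group total to give CPM. Ratios carry exact 95% intervals from the binomial split of UMIs, levels Poisson intervals and shares Clopper-Pearson intervals, all for counting error only, since intervals cannot cover spread between mice with 1 library per genotype. Genes needed 50 UMIs over both groups to enter the totals past 2-fold of each comparison. They needed 20 to enter the median and the counts of a list. Past 2-fold means a ratio of at least 2 or at most 0.5.

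The genes named were members of 33 lists (454 of 457 symbols matched), genes of the selection rule, Smad3, and the 15 highest and 15 lowest ratios of each comparison. Xist, Ddx3y, Slc7a11, Gpx1, Cd24a, Snap23, Marcksl1 and AY036118 were added after their values were seen. Some genes of the lists are not reported here. The members and the lists were chosen with earlier results of these data known. The calculations were tested on simulated data. Calculations used scipy 1.17.1 and pandas 2.3.3 under Python 3.11.15, figures matplotlib 3.10.9 and arrays numpy 2.4.6. Alternatives varied the thresholds, the cells, the scaling and the UMI minimum.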

Additional observations from a re-analysis of the deposited data

Results flagged for a closer look

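For 21 of the 479 genes measured in both libraries, all outside the selection rule, the receptor-high over receptor-low ratio lay above 1 in a Smad3 genotype and below 1 in the other, with 95% counting intervals that did not reach 1. Their difference between the libraries itself was not tested. Of the 21, 9 were ribosomal and 4 mitochondrial, and the other 8 and the ribosomal Rps7 are given here. Cxcl3, a ligand of Cxcr2, had a ratio of 0.609 in Smad3-WT and 1.17 in Smad3-KO, but the latter fell to 0.252 at 6 or more receptor UMIs, 0.981 with the threshold as a share of UMIs and 0.949 with Tnf-positive cells kept. Slc7a11, the cystine transporter that feeds glutathione synthesis, had 0.829 and 1.77, the former 1.07 with the threshold as a share of UMIs. The ratios of the rest were above 1 in Smad3-WT and below 1 in Smad3-KO. The transcript AY036118 had 1.69 and 0.415. Ncf1, a subunit of the NADPH oxidase, had 1.48 and 0.327, and Gpx1, a glutathione peroxidase, 1.52 and 0.0888, the latter on 1 UMI in the members. Cd24a, a surface glycoprotein of granulocytes, had 1.21 and 0.348, Snap23, which serves granule fusion, 1.37 and 0.451, and Marcksl1, an actin-binding protein, 1.36 and 0.677. The ribosomal gene Rps7 had 1.29 and 0, on 0 against 115 UMIs in Smad3-KO, and its Smad3-WT ratio was 0.786 without cells carrying markers of other cell types and 0.623 without its top cell.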

How the results depend on the processing

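The share of neutrophils that were receptor-high moved with the threshold, to 35.2% in Smad3-WT and 14.7% in Smad3-KO at 3 or more UMIs and to 9.08% and 2.35% at 6 or more. In Smad3-WT it was also 25.97% with a threshold on the share of UMIs and 26.1% with Tnf-positive cells kept. It was higher in Smad3-WT under each of these. The count of genes past 2-fold in Smad3-WT, 92, became 236 with a threshold on the share of UMIs, 142 against cells with neither receptor, and 295, 17 and 4743 at a minimum of 20, 200 and 1 UMIs. The Smad3-KO count of 142 became 387, 26 and 6375 at those minimums and 73 without cells carrying markers of other cell types, and the count between genotypes, 306, became 753, 77 and 7418, and 145 at 6 or more receptor UMIs. The medians of the tumor-adapted, chemokine, mature blood, chemotactic receptor, integrin, pattern recognition, interferon, immediate early, glycolysis and stress lists kept their side of 1 in Smad3-WT under all 18 alternatives, 2 of which left the same cells, the NF-kB median under 11 and the interleukin-1 median under 15. In Smad3-KO 4 of the 12 list medians changed side under at least 1 of 18, with mature blood genes reaching 0.911, chemotactic receptors 0.372, interferon-stimulated genes 0.948 and stress genes 1.205. Between the genotypes 6 of 12 did, and of 16 alternatives the side was kept under 5 for stress, 9 for integrin, 12 for pattern recognition, 13 for tumor-adapted and 15 for chemotactic receptor and for glycolysis genes. Of the 98, 85 and 91 genes followed in Smad3-WT, in Smad3-KO and between the genotypes, 14, 23 and 23 changed side of 1 under at least 1 alternative. Those past 2-fold that did so were Socs3 in Smad3-KO (0.660 at 6 or more UMIs), Tnfaip3 between genotypes (0 at 6 or more) and Col3a1 in Smad3-WT (1.78 without cells carrying other markers). At 6 or more UMIs G0s2 in Smad3-KO came to 0.915 and Ccl4 between genotypes to 1.27. No neutrophil reached 20000 UMIs or the top 5% of its library's UMIs, so these alternatives left the same cells and could not change a value. Leaving out cells with other markers, the top cell of each gene, barcodes in both libraries or the deepest 5% of neutrophils were choices made after seeing the data. No paired analysis was possible because each genotype is 1 library, and for the same reason none could be left out. The 25 Smad3-KO members limit every value in that library.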

Other observations

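Several further lists were measured in the receptor-high neutrophils. Cytokine receptors had a median high over low ratio of 1.11 in Smad3-WT, 13 of 20 above 1, and 1.29 in Smad3-KO, where 4 of 15 were past 2-fold higher and 1 past 2-fold lower, against 9.62 and 25.8% of the 1091 genes with at least 20 UMIs. The lower one was Ifnar2, a chain of the interferon receptor, on 1 against 39 UMIs (0.198, 0.00489 to 1.17). The higher ones included Csf2ra and Csf2rb, the chains of the receptor for granulocyte-macrophage colony-stimulating factor, at 546 against 112 CPM (4.88, 2.16 to 10.6; 1.35 in Smad3-WT) and 865 against 365 CPM (2.37, 1.34 to 4.01; 1.41 in Smad3-WT), and Tnfrsf1a, the main receptor for tumor necrosis factor, at 546 against 188 CPM (2.90, 1.36 to 5.78; 1.59 in Smad3-WT). Matrix proteases and inhibitors had medians of 1.06 and 1.93, lipid mediator and histamine enzymes 1.11 and 1.17, and neutrophil identity genes outside the rule 1.14 and 0.909.

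NADPH oxidase genes had medians of 1.25 in Smad3-WT and 0.832 in Smad3-KO, S100 and stefin genes 0.974 and 0.906, survival and death genes 0.965 and 0.954, and lipid droplet genes 0.876 and 1.12. Mcl1, a survival factor on which neutrophils depend, stood at 1218 CPM in receptor-high and 1245 in receptor-low Smad3-WT neutrophils, and 2185 and 2291 in those of Smad3-KO. Between the genotypes the survival list had a median of 1.24, with 2 of 10 genes past 2-fold higher and 3 past 2-fold lower, against 9.55 and 34.3% and a median of 0.750 over all 1717 genes with at least 20 UMIs, so the lower count is near the background. Bcl2l1 and Cflar, which oppose cell death, stood at 273 against 90.5 CPM (3.02, 1.02 to 7.50) and 501 against 153 CPM (3.27, 1.52 to 6.43) in Smad3-KO and Smad3-WT members. The lower ones were Bax, which promotes cell death, with 0 against 22 UMIs, and the survival genes Bcl2a1b, with 4 against 171 (0.306, 0.0824 to 0.798), and Bcl2a1d, with 1 against 47. The intervals of Bax and Bcl2a1d lie across 1. The Bcl2a1 genes are near-identical copies and uncertain.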
